A study of Saccharomyces cerevisiae with 6 samples.

Results

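Mediator and SAGA are the coactivators that yeast cells use to turn the binding of a transcription factor into transcription by RNA polymerase II, and the mRNAs of their subunits were followed here into RNA assemblies formed in a test tube. The 40 genes were taken by systematic name, 25 for Mediator and 15 for SAGA, out of 6603 open reading frames in the table because they encode subunits of these complexes. All 40 had a RefSeq entry whose symbol was that of the subunit named, and all 40 passed the filter of a mean of at least 10 normalised reads that left 5670 genes for testing.

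The assemblies (3 libraries) were made from phenol- and chloroform-extracted RNA of BY4741, a standard Saccharomyces cerevisiae strain, in log phase. This RNA, at 150 µg/mL, had condensed in a buffer with 1 mM MgCl2, 150 mM NaCl and the crowding agent polyethylene glycol (PEG, 10%), and was then pelleted. They were compared with total RNA of the same strain (3 libraries), and all 6 libraries were depleted of ribosomal RNA. The starting material was extracted RNA and not cells, so the comparison is about which mRNAs were found in a pellet and not about transcription. The labels place the total RNA in the same buffer, while the design text names the buffer for the assemblies alone, so the handling of total RNA remains unclear. Nothing states that replicates were separate cultures or reactions, so the spread that p-values are measured against is that of these libraries and may be technical.

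Libraries held 8749240 to 10531980 reads in assemblies and 8948906 to 10281076 in total RNA. The members' reads came to 0.472% to 0.573% of a library in assemblies and 0.271% to 0.298% in total RNA. LEU2 and MET17, deleted in BY4741, were at 0 in all 6 libraries, and URA3, also deleted, did not exceed 0.862 normalised reads. Total RNA libraries 1 and 2 were closer to each other (chi-square per degree of freedom 1.56) than total RNA library 3 was to either (11.7 and 12.3), and assembly libraries differed more (25.5 to 57.5). Normalised reads are counts over a size factor, set once for each library, which centres the median gene. Every direction below is therefore relative to that gene and says nothing of how much RNA was pelleted.

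Mediator is a large bridge between DNA-bound activators and RNA polymerase II. Its head and middle modules contact the polymerase, its tail module is the main landing site of activators, MED14 is the backbone that joins these 3 modules, and a kinase module with cyclin-dependent kinase 8 can come off and go back on. SAGA loosens chromatin and delivers the TATA-binding protein to promoters. It has an acetyltransferase module built around Gcn5, a deubiquitinase module built around Ubp8, a structural core that includes TAFs shared with the general factor TFIID, and Tra1, a very large protein that activators bind. The subunits range from some of the smallest to some of the largest proteins of the cell, and the coding lengths of the 40 genes ran from 291 nt (SUS1) to 11235 nt (TRA1).

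Sequence features that only some members hold are shown first, read from the RefSeq genome of build R64. Runs of at least 10 consecutive glutamine codons (CAA or CAG, read in frame on the coding strand) occur in 4 members. Of these, 3 were called higher in the assemblies, as were 41.3% of all genes tested. After coding length and GC content were fitted out, as described below, 1 of the 4 was higher, as were 34.3% of all genes. Only the longest run of each gene is shown, in capitals, with 15 nt of coding sequence on either side. Such a run was held by 51 of the 5504 nuclear coding genes tested (0.927%). The longest run of GAL11, the tail subunit MED15, spans codons 674 to 696 (chrXV:236944-237042, plus strand) and holds 10 CAG and 13 CAA codons. Those of PGD1 (MED3, chrVII:448869-448934, minus strand), SSN2 (MED13, chrIV:1346516-1346578, minus strand) and SGF73 (chrVII:378989-379051, plus strand) hold 12, 11 and 11 codons. All 4 lie in the single coding exon of their gene.
GAL11: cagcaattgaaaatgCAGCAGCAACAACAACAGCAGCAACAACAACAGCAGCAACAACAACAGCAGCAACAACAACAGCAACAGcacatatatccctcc
PGD1: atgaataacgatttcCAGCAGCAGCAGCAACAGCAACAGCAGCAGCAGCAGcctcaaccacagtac
SSN2: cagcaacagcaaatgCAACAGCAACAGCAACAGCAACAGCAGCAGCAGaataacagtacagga
SGF73: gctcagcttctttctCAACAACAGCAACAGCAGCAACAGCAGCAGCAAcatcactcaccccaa

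At the other end of the range stand SGF11 and SUS1, partners in the deubiquitinase module, whose coding sequences of 300 and 291 nt are shown whole because these mRNAs, nearly equal in coding length, had log2 fold changes of -2.07 and -0.76. Capitals mark the start and stop codons. SGF11 (chrXVI:465962-466261, plus strand) has no intron and 41.7% GC. SUS1 (chrII:462139-462579, plus strand) has 34.4% GC, and its exons are joined here across 2 introns.
SGF11: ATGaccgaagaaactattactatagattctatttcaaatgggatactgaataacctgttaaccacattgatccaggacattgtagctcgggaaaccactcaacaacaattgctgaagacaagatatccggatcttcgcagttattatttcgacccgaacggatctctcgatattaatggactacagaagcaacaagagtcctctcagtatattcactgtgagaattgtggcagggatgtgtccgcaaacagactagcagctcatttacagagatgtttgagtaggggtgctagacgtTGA
SUS1: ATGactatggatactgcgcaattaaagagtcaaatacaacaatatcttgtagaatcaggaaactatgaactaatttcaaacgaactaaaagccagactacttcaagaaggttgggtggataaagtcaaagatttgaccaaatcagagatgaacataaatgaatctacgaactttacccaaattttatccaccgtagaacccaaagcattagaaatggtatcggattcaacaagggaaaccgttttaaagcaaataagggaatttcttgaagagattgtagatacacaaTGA

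Introns occur in 2 of the 40 genes, SUS1 and SRB2, the head subunit MED20. The SUS1 introns of 80 nt (chrII:462210-462289) and 70 nt (chrII:462430-462499) and the SRB2 intron of 101 nt (chrVIII:189750-189850, minus strand) are shown with the first 6 and last 2 bases in capitals, and with the branch-point sequence TACTAAC in capitals where a search of the intron's own strand found it. It was found in 1 of the 3. Whether reads that cross an intron were counted is not stated.
SUS1 intron 1: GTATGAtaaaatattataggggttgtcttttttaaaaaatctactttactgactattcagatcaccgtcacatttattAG
SUS1 intron 2: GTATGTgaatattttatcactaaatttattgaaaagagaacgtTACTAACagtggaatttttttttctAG
SRB2 intron: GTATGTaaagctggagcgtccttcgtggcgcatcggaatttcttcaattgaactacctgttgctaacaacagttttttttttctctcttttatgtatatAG

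The subunit mRNAs of each complex differed in opposite directions between assemblies and total RNA. Of the 25 Mediator mRNAs, 10 were higher in assemblies (40%, where 41.3% of all genes tested were called higher), 6 were lower (24%, against 40.8% of all genes) and 9 were not called. Of the 15 SAGA mRNAs, 7 were higher (46.7%), 4 were lower (26.7%) and 4 were not called. These calls are from limma on log2(value + 1) over all 5670 genes, 2-sided, at a Benjamini-Hochberg adjusted p of 0.05, which 82.2% of all genes passed in either direction. The edgeR test on the recovered reads called 9 Mediator mRNAs higher and 6 lower, and 6 SAGA mRNAs higher and 6 lower (39.4% of all genes higher, 43.6% lower and 82.9% either way). The median log2 fold change of assemblies over total RNA was 0.19 for Mediator, 0.13 for SAGA and 0.02 for all genes tested, so that the middle of either complex lay near that of the transcriptome, while single subunits ranged from -2.70 to 2.11. Changes of at least 2-fold were called upwards in 9 members and downwards in 6, against 26.3% and 25.8% of all genes. The 3 assembly values lay wholly above the 3 total RNA values in 17 members and wholly below them in 11, against 42.7% and 42.6% of all genes (85.3% together).

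**Figure D1:**
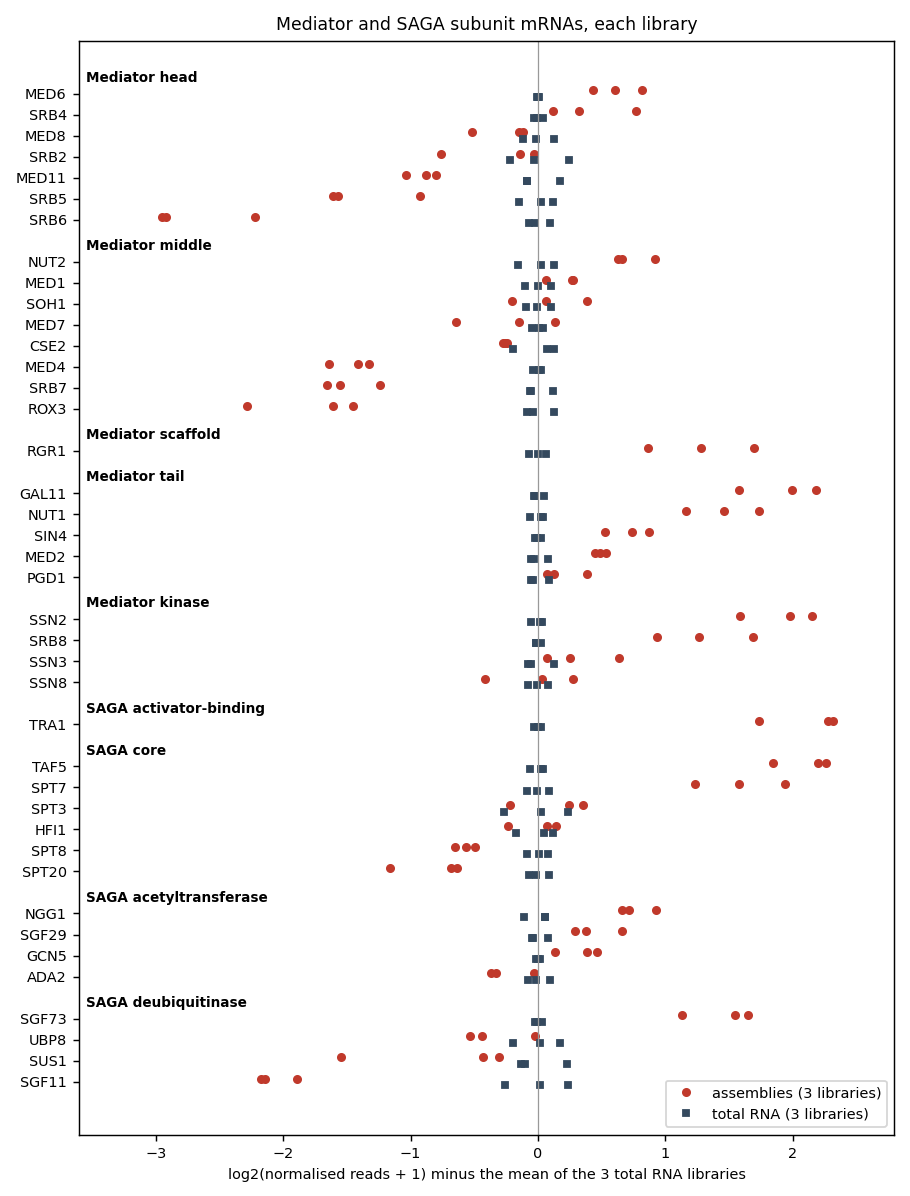
Each row is 1 subunit mRNA, ordered within its module by log2 fold change, and the horizontal axis is log2(normalised reads + 1) minus the mean of the 3 total RNA libraries. Circles are the 3 assembly libraries and squares the 3 total RNA libraries. The tail module, the scaffold RGR1 and TRA1 lie to the right. Furthest to the left are SRB6 of the head (log2 fold change -2.70), SGF11 of the SAGA deubiquitinase module (-2.07) and ROX3 of the middle (-1.78).

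The split depends on the scaling in part. When libraries were instead given equal totals, the median gene moved to -0.54 on the log2 scale, 5 Mediator mRNAs were higher and 14 lower, and 4 SAGA mRNAs were higher and 7 lower (27.9% of all genes higher, 53.7% lower and 81.6% either way). Of the 17 higher members, 9 were called higher with the deposited size factors, with equal totals and after quantile normalisation, namely RGR1, NUT1, GAL11, SRB8, SSN2, TRA1, SPT7, TAF5 and SGF73. Of the 10 lower members, 7 were called lower under all 3 scalings, namely SRB5, SRB6, MED4, ROX3, SRB7, SPT20 and SGF11. The share of all genes that kept a call under all 3 scalings was not computed, so whether these counts are particular to the members was not tested.

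In the head module, whose essential scaffold is MED17, 2 of 7 mRNAs were higher, 3 were lower and 2 were not called, with a median log2 fold change of -0.31 ± 0.31 (SD of the medians of the 3 assembly libraries, each against the mean of total RNA). For this count and those of the modules below, 41.3% of all genes tested were higher and 40.8% lower. With equal library totals 0 head mRNAs were higher and 5 lower (27.9% and 53.7% of all genes). After quantile normalisation 1 was higher and 2 lower, beside 2406 and 2103 of the 5670 genes tested. SRB6 (MED22, YBR253W, chrII:723270-723635, plus strand), which pairs with MED11 (YMR112C), was the lowest of all 40 members. It had 20.7, 35.1 and 21.2 normalised reads in assembly libraries 1, 2 and 3, against 178, 159 and 165 in total RNA libraries 1, 2 and 3. The groups were far apart and rested on 17 to 29 reads per assembly library and 185 to 236 per total RNA library (log2 fold change -2.70, SE 0.22, limma adjusted p = 4.31e-07). Its partner MED11 also fell, to 76.7, 72.6 and 64.8 normalised reads in assemblies, against 151, 127 and 126 in total RNA (log2 fold change -0.90, SE 0.16, limma adjusted p = 0.000192), and this call was lost after quantile normalisation (log2 fold change -0.17).

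SRB5 (MED18, YGR104C) and SRB2 (MED20, YHR041C) form a movable jaw at the end of the head. SRB5 fell to 102, 65.4 and 63.7 normalised reads in assemblies, against 177, 199 and 213 in total RNA (log2 fold change -1.37, SE 0.19, limma adjusted p = 3.34e-05), with no overlap between the groups. SRB2 had 272, 177 and 294 normalised reads in assemblies and 294, 258 and 355 in total RNA, and these ranges overlapped (log2 fold change -0.31, SE 0.19, limma adjusted p = 0.158). SRB2 also has the highest GC content of the 40 coding sequences (54.5%). MED8 (YBR193C), which holds the jaw to the rest of the head, had 152, 156 and 118 normalised reads in assemblies and 168, 185 and 156 in total RNA, and was not called (log2 fold change -0.26, limma adjusted p = 0.136).

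The remaining head mRNAs were higher. MED6 (YHR058C) had 375, 436 and 332 normalised reads in assemblies, against 246, 248 and 245 in total RNA, so that every assembly library stood above the narrow range of total RNA (log2 fold change 0.62, SE 0.13, limma adjusted p = 0.00104). With equal library totals this difference was 0.05 and was not called. SRB4 (MED17, YER022W), the longest head coding sequence with 2064 nt, had 619, 536 and 845 normalised reads in assemblies and 508, 485 and 492 in total RNA, without overlap but with wide spread among assemblies (log2 fold change 0.40, SE 0.16, limma adjusted p = 0.0348). Its call was lost without any 1 of assembly libraries 1 and 3 and total RNA libraries 1, 2 and 3 (adjusted p from 0.0521 to 0.0954), and its log2 fold change was 0.22 without assembly library 3 and -0.16 with equal library totals.

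In the middle module, which lies along the polymerase, 1 of 8 mRNAs was higher, 3 were lower and 4 were not called, with a median of -0.24 ± 0.17. With equal library totals 0 of the 8 were higher and 7 lower (27.9% and 53.7% of all genes). After quantile normalisation 4 were higher and 3 lower, beside 2406 and 2103 of the 5670 genes tested. ROX3 (MED19, YBL093C) was the lowest of the module with the deposited scaling. It had 255, 229 and 143 normalised reads in assemblies, against 763, 679.9 and 659 in total RNA (log2 fold change -1.78, SE 0.19, limma adjusted p = 3.56e-06). In every total RNA library it had the most normalised reads per kilobase of coding length of all 40 members, a place that TRA1 took in every assembly library. SRB7 (MED21, YDR308C) and MED4 (YOR174W) fell as well, with log2 fold changes of -1.48 (SE 0.16) and -1.46 (SE 0.14). MED7 (YOL135C), which pairs with MED21, and CSE2 (MED9, YNR010W), which pairs with MED4, were not called (log2 fold change -0.22, SE 0.19, and -0.26, SE 0.17, limma adjusted p = 0.293 and 0.175).

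NUT2 (MED10, YPR168W, chrXVI:878076-878549, plus strand) was the middle mRNA that rose, and its coding sequence of 474 nt is among the shortest of the set. It had 177, 215 and 180.3 normalised reads in assemblies, against 102, 115 and 124 in total RNA (log2 fold change 0.74, SE 0.15, limma adjusted p = 0.000602). No assembly library overlapped with total RNA, although with equal library totals the difference was 0.17 and was not called. SOH1 (MED31, YGL127C), a small and conserved subunit with 384 nt, had 206, 258 and 171 normalised reads in assemblies and 211, 185 and 196 in total RNA, which overlapped (log2 fold change 0.08, SE 0.16, limma adjusted p = 0.657). MED7 had 167, 137 and 96.7 normalised reads in assemblies and 156, 153 and 147 in total RNA, with overlap. CSE2 had 62.1, 62.9 and 63.7 in assemblies and 82.3, 79.3 and 65.6 in total RNA, close to each other without overlapping. MED1 (YPR070W), the longest of the module with 1701 nt, had 479, 415 and 482 in assemblies and 397, 427 and 369 in total RNA, with overlap (log2 fold change 0.20, limma adjusted p = 0.152).

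The scaffold RGR1 (MED14, YLR071C) and the tail stood higher. RGR1 had 1972, 2625 and 3507 normalised reads in assemblies, against 1029.5, 1086 and 1134 in total RNA (log2 fold change 1.28, SE 0.18, limma adjusted p = 3.53e-05). In the tail 4 of 5 mRNAs were higher and none was lower, with a median of 0.71 ± 0.18 (41.3% of all genes tested were higher and 40.8% lower). After coding length and GC content were fitted out, as described below, 1 tail mRNA was higher and 1 lower. GAL11 (MED15, YOL051W), the subunit that the activators Gcn4 and Gal4 bind, was the highest Mediator mRNA, with 3300.1, 5027 and 4423 normalised reads in assemblies, against 1147, 1090.1 and 1083 in total RNA (log2 fold change 1.92, SE 0.16, limma adjusted p = 4.44e-07). NUT1 (MED5, YGL151W) followed with 1.45 (SE 0.15), SIN4 (MED16, YNL236W) with 0.71 (SE 0.13) and MED2 (YDL005C) with 0.49 (SE 0.12). With equal library totals SIN4 (0.15) was not called and MED2 turned to -0.08, and SIN4 was not called after quantile normalisation either (0.20). PGD1 (MED3, YGL025C), the partner of MED2 and GAL11 in the triad that activators contact, was the lowest tail mRNA. It had 256, 247 and 308 normalised reads in assemblies and 250.02, 227 and 228 in total RNA, with overlap (log2 fold change 0.19, SE 0.14, limma adjusted p = 0.198).

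In the kinase module the mRNAs of the large subunits MED13 and MED12 were higher, and those of the kinase and its cyclin were not called (median of the 4, 0.81 ± 0.33). This split depended on the scaling. After quantile normalisation all 4 mRNAs were called higher, beside 2406 of the 5670 genes tested. With equal library totals 2 were higher and 1 lower (27.9% and 53.7% of all genes). SSN2 (MED13, YDR443C), which links the module to the rest of Mediator, had 2257, 2968 and 3346 normalised reads in assemblies, against 763, 769 and 725 in total RNA (log2 fold change 1.91, SE 0.15, limma adjusted p = 4.03e-07). SRB8 (MED12, YCR081W), which activates the kinase, had 1372, 1728 and 2320 in assemblies, against 712, 713 and 731 in total RNA (log2 fold change 1.30, SE 0.17, limma adjusted p = 1.89e-05). Every assembly library stood above total RNA for these very long mRNAs. The kinase itself, SSN3 (CDK8, YPL042C), had 333, 375 and 490.4 normalised reads in assemblies and 304, 299 and 345 in total RNA, which overlapped (log2 fold change 0.32, SE 0.16, limma adjusted p = 0.0753). Its cyclin SSN8 (YNL025C) had 99.9, 162 and 137 in assemblies and 141, 127 and 133 in total RNA, also with overlap (log2 fold change -0.03, SE 0.18, limma adjusted p = 0.867).

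TRA1 (YHR099W, chrVIII:302761-313995, plus strand), the pseudokinase through which activators recruit SAGA and also the NuA4 acetyltransferase, was the highest of all 40 members. It had 24441, 35423 and 36467 normalised reads in assemblies, against 7331, 7448 and 7173 in total RNA (log2 fold change 2.11, SE 0.17, limma adjusted p = 3.90e-07). It supplied 48.6% to 52.5% of the normalised reads of the 40 members in assemblies and 31.8% to 32.4% in total RNA. Across all genes tested, 98.2% had a lower log2 fold change.

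The SAGA core was divided, with 2 of 6 mRNAs higher, 2 lower and 2 not called. TAF5 (YBR198C, chrII:616127-618523, minus strand), a WD-repeat protein shared with TFIID, had 3709, 4745 and 4961 normalised reads in assemblies, against 1051, 1061 and 988 in total RNA (log2 fold change 2.10, SE 0.14, limma adjusted p = 3.17e-07). SPT7 (YBR081C), which carries a bromodomain and holds the core together, rose by 1.59 (SE 0.17, limma adjusted p = 2.95e-06). SPT20 (YOL148C), a core scaffold protein, went the other way, with 239, 229.98 and 165 normalised reads in assemblies, against 367, 352 and 393 in total RNA (log2 fold change -0.83, SE 0.16, limma adjusted p = 0.000366). SPT8 (YLR055C, chrXII:251272-253080, minus strand), which binds the TATA-binding protein, had 197, 207 and 186 in assemblies, against 294, 308 and 275 in total RNA (log2 fold change -0.57, SE 0.13, limma adjusted p = 0.00120), and its call was lost after quantile normalisation (log2 fold change -0.23). SPT20 and SPT8 have coding sequences of 1815 and 1809 nt, which are not short for the set.

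The 2 core mRNAs that were not called had overlapping groups. SPT3 (YDR392W), which works with SPT8, had 238, 219 and 159 normalised reads in assemblies and 188, 219 and 154 in total RNA (log2 fold change 0.13, limma adjusted p = 0.527). HFI1 (YPL254W), also called ADA1, which pairs with TAF12 in the core, had 305, 397 and 378 in assemblies and 319.5, 371 and 391 in total RNA (log2 fold change -0.01, limma adjusted p = 0.965).

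In the acetyltransferase module 3 of 4 mRNAs were higher and none was lower, with a median of 0.39 ± 0.16 (41.3% of all genes tested were higher and 40.8% lower). NGG1 (ADA3, YDR176W) had 971, 1127 and 937 normalised reads in assemblies, against 614, 616 and 547 in total RNA (log2 fold change 0.77, SE 0.13, limma adjusted p = 0.000123). SGF29 (YCL010C), which reads methylated histone tails, rose by 0.45 (SE 0.13, limma adjusted p = 0.00883). The enzyme GCN5 (YGR252W) rose by 0.33 (SE 0.13, limma adjusted p = 0.0342), and this call was lost without any 1 of assembly libraries 1 and 2 and total RNA libraries 1, 2 and 3 (adjusted p from 0.0585 to 0.105). With equal library totals NGG1 (0.20) was not called, and SGF29 and GCN5 turned to -0.12 and -0.24. Under that scaling 0 of the 4 mRNAs were called higher and 1 lower, and edgeR called 2 higher and 1 lower. ADA2 (YDR448W), which stimulates Gcn5, had 273, 279.6 and 344 normalised reads in assemblies and 348, 333 and 376 in total RNA, with overlap (log2 fold change -0.24, limma adjusted p = 0.116).

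The deubiquitinase module had 1 mRNA higher, 2 lower and 1 not called, with a median of -0.55 ± 0.42. SGF73 (YGL066W), the ortholog of human ataxin-7 that anchors the module to SAGA, had 739, 1058 and 987 normalised reads in assemblies, against 344, 335 and 331 in total RNA (log2 fold change 1.44, SE 0.15, limma adjusted p = 2.17e-06). SGF11 (YPL047W), a zinc-finger protein needed for Ubp8 activity, had 20.7, 25.4 and 21.2 in assemblies, against 98.2, 81.0 and 114 in total RNA (log2 fold change -2.07, SE 0.21, limma adjusted p = 1.86e-06), from 17 to 21 reads per assembly library. SUS1 (YBR111W-A), which also serves in mRNA export in the TREX-2 complex at the nuclear pore, had 37.8, 16.9 and 41.3 normalised reads in assemblies, against 46.8, 60.3 and 47.7 in total RNA, without overlap (log2 fold change -0.76, SE 0.31, limma adjusted p = 0.0370). Assembly library 2 rested on 14 reads of SUS1, and without it the log2 fold change was -0.37 and the call was lost (adjusted p = 0.130), as it was without total RNA library 2 or 3 (adjusted p = 0.109 and 0.0623) and after quantile normalisation. The ubiquitin protease UBP8 (YMR223W) had 207, 221.5 and 296 in assemblies and 263, 339 and 304 in total RNA, with overlap (log2 fold change -0.33, limma adjusted p = 0.0772).

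The authors' deposited table lists a DESeq p-value for 22 of the 40 members, 13 with a deposited fold above 1 and 9 with a deposited fold below 1, and for 59.8% of all open reading frames. The largest deposited fold among the members in the authors' deposited table is 4.39 for TRA1, and the smallest is 0.153 for SRB6.

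The members with the longest coding sequences rose. All 11 members with at least 2000 nt were higher (median 1.45 on the log2 scale), where 88.8% of the 1274 genes of that length were called higher and their median was 1.38. Of the 8 members under 500 nt, 5 were lower and 1 was higher, with a median of -0.83, where 73.3% of the 692 genes of that length were lower and their median was -1.34. The 9 members from 500 to below 1000 nt included 3 lower and 2 higher mRNAs (median -0.26). Among the 1390 genes of that length, 69.1% were called lower and 15% higher (median -0.94). The 12 members from 1000 to below 2000 nt included 2 lower and 3 higher mRNAs (median 0.16). Among the 2148 genes of that length, 35.1% were called lower and 39.7% higher (median 0.09). Spearman's rho between log2 fold change and coding length was 0.756 over the 40 members (Pearson's r with log2 length 0.767), 0.776 over the 25 of Mediator and 0.682 over the 15 of SAGA. Over 5504 nuclear coding genes it was 0.676. These coefficients are across genes measured in the same 6 libraries, which are not independent replicates. With GC content rho was -0.219 over the 40 members.

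**Figure D2:**
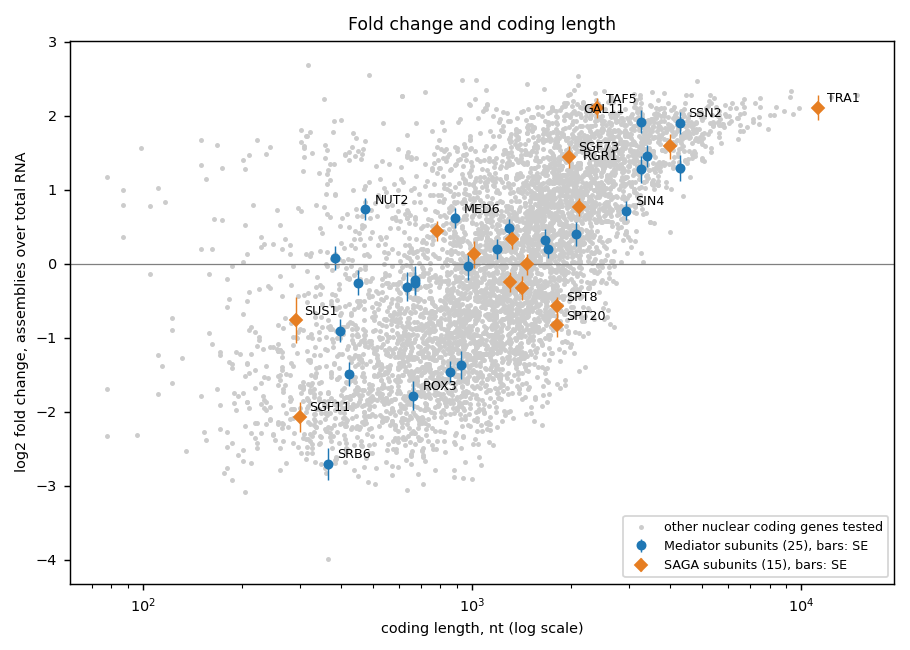
Log2 fold change of assemblies over total RNA against coding length in nt on a log axis, for Mediator subunits (circles) and SAGA subunits (diamonds) with their SE as bars, over all other nuclear coding genes tested (grey). The members follow the cloud of other genes, with NUT2 and MED6 above most genes of their length and SPT20, SPT8 and SRB6 below.

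The assembly libraries themselves differed with length. For the 11 members of at least 2000 nt the median log2 ratio to the mean of total RNA was 1.16, 1.46 and 1.74 in assembly libraries 1, 2 and 3, library 1 gave the lowest value for 9 of the 11 and library 3 the highest for 9 of the 11. For the 17 members under 1000 nt the medians were -0.41, -0.76 and -0.52 in libraries 1, 2 and 3. The part of this difference in the results was not tested beyond leaving out each library. Without any 1 library, 15 of the 17 higher and 9 of the 10 lower members were still called in the same direction in all 6 fits, and the others were SRB4, GCN5 and SUS1. The share of all genes that kept a call in all 6 fits was not computed. Members not called with all libraries gained a call in some of these fits. Without assembly library 3, ADA2 (-0.35, limma adjusted p = 0.0151), UBP8 (-0.49, limma adjusted p = 0.00542) and SRB2 (-0.45, limma adjusted p = 0.0424) were lower, so that 6 SAGA mRNAs were lower in place of 4. In that fit 2349 of the 5670 genes tested were lower. Without assembly library 1, SSN3 was higher (0.44, limma adjusted p = 0.0220). Without assembly library 2, total RNA library 2 or total RNA library 3, 3 SAGA mRNAs were lower, beside 2231, 2194 and 2199 of the 5670 genes tested.

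The range of levels within each complex was wider in assemblies. It was not computed for other genes, so whether it is particular to these complexes was not tested. The lowest Mediator mRNA in assembly libraries 1, 2 and 3 was SRB6, SRB5 and SRB6, from 17, 54 and 18 reads. The lowest SAGA mRNA was SGF11, SUS1 and SGF11, from 17, 14 and 18 reads. Per kilobase of coding length, the highest Mediator mRNA had 21.1 ± 2.85 times the normalised reads of the lowest in assemblies and 7.68 ± 0.364 times in total RNA (means with SD over 3 libraries). GAL11 was the highest in every assembly library, while ROX3 was the highest and SSN8 the lowest in every total RNA library. Among SAGA mRNAs the ratio was 43.9 ± 11.5 in assemblies and 4.05 ± 0.146 in total RNA, and 28.6 ± 5.82 against 2.74 ± 0.141 without TRA1. The SD of the log2 level per kilobase over the 40 members averaged 1.25 ± 0.108 for assembly libraries and 0.616 ± 0.0260 for those of total RNA (n = 3 each), with no overlap between the groups. TRA1 had 2858 normalised reads per kilobase in assemblies and 651 in total RNA. SGF11, from the same complex, had 74.8 in assemblies and 326 in total RNA.

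**Figure D3:**
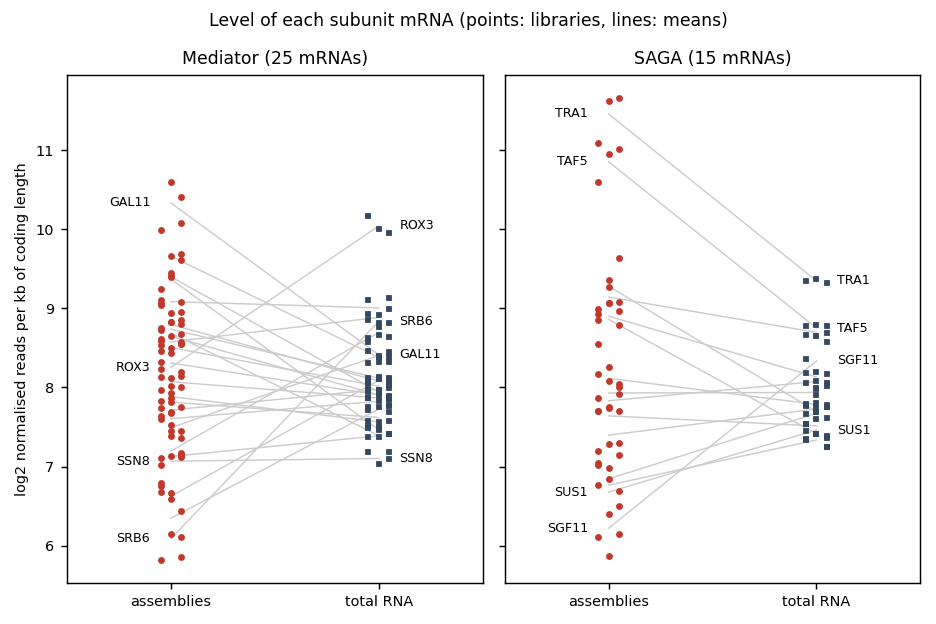
Log2 normalised reads per kilobase of coding length of each Mediator mRNA (left panel) and each SAGA mRNA (right panel), in the 3 assembly libraries (circles) and the 3 total RNA libraries (squares), with lines joining the means of 1 mRNA. The levels fan out in assemblies, where the highest SAGA mRNA had 43.9 times the level of the lowest, against 4.05 times in total RNA.

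To see which subunits departed from mRNAs of like length and composition, coding length and GC content were fitted out of each library over 5504 nuclear coding genes and the limma test was repeated. Of the 40 members, 14 were then higher (34.3% of all genes were), 10 were lower (35.5% of all genes, 69.9% either way) and 16 were not called. Of the 17 that were higher before, 7 were still called higher (MED6, NUT2, MED2, TAF5, GCN5, SGF29 and SGF73), 8 were not called and 2, SIN4 and SRB8, were lower. Of the 10 that were lower before, 7 were still called lower (SRB5, SRB6, MED4, ROX3, SPT20, SPT8 and SGF11), SRB7 was not called, and MED11 and SUS1 were higher. The calls of SUS1 (SE 0.33, limma adjusted p = 0.0493) and SRB8 (limma adjusted p = 0.0430) were close to the threshold. SUS1 had as few as 14 reads in an assembly library, and no library was left out in this fit. TRA1, SSN2, GAL11, NUT1, SPT7 and RGR1, all among the largest changes before, had fitted log2 fold changes of 0.11, 0.15, 0.21, 0.14, 0.07 and 0.00 and were not called.

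The members furthest from other genes of like length and GC content were mostly not the longest. Ranks below are of these fitted values among all genes so fitted. NUT2 had the highest fitted log2 fold change, 1.90 (SE 0.15, limma adjusted p = 1.24e-05), and 97.4% of genes lay below it. CSE2 of the middle (1.24), MED6 of the head (1.09) and TAF5 of SAGA (0.93) followed. At the bottom stood SPT8 with -1.73 (SE 0.13, limma adjusted p = 9.58e-06), SRB6 of the head with -1.57, SPT20 with -1.35, ROX3 of the middle with -1.10 and SGF11 with -0.92. Short Mediator mRNAs from the head and the middle thus stood near both ends. In this fit 3 head mRNAs were higher and 3 lower, and 3 middle mRNAs were higher and 2 lower (34.3% and 35.5% of all genes). Only 1.67% of genes lay below SPT8 and 5.56% below SPT20, which encode core proteins of SAGA. Within the head, the heterodimer partners SRB6 (-1.57) and MED11 (0.41, limma adjusted p = 0.0286) were called in opposite directions.

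Among the members with a run of at least 10 glutamine codons, SGF73 stayed higher after this fit (0.57, SE 0.10, limma adjusted p = 0.000955), while GAL11, SSN2 and PGD1 were not called (0.21, 0.15 and -0.08). Over the 51 genes with such a run the median log2 fold change was 1.44 before this fit and 0.38 after it, and 41 were higher and 5 lower before (41.3% and 40.8% of all genes tested), 31 higher and 4 lower after (34.3% and 35.5%). Their median coding length was 1914 nt, against 1248 nt for all genes tested. The match is a description of the coding sequence.

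**Figure D4:**
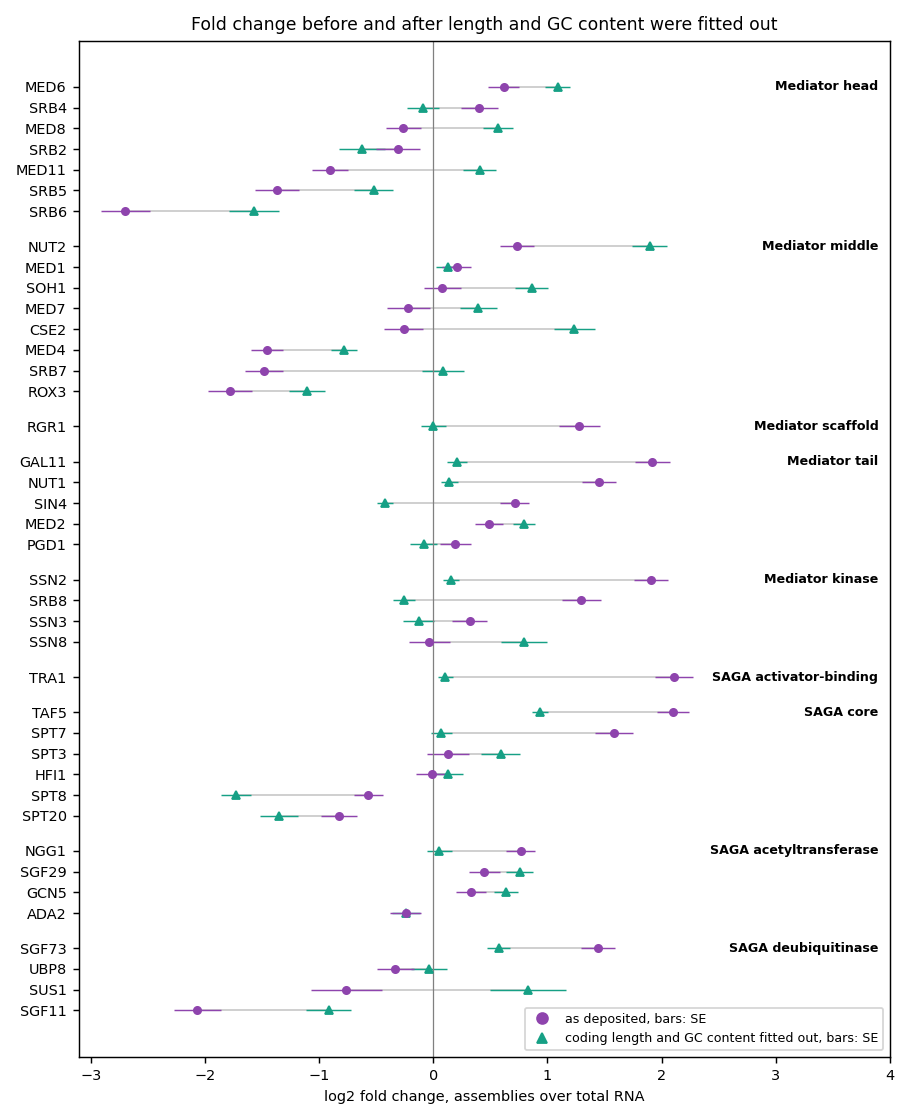
Log2 fold change of assemblies over total RNA for each member, by module, with the deposited scaling (circles) and with coding length and GC content removed by the fit (triangles), bars showing SE. TRA1 moves to 0.11, GAL11 to 0.21 and SSN2 to 0.15, while TAF5 stays at 0.93, SIN4 and SRB8 move to -0.42 and -0.26, SPT8, SPT20 and SRB6 stay low and NUT2 moves up to 1.90.

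Of 43 genes of the transcription machinery that are not members, 15 were higher (34.9%, against 41.3% of all genes tested), 16 lower (37.2%, against 40.8%) and 12 not called in the same limma test, with a median log2 fold change of -0.10. Of the 4 TAFs that SAGA shares with TFIID, TAF12 was higher (1.08, SE 0.12), TAF6 (-1.26, SE 0.13) and TAF9 were lower, and TAF10 was not called. Of the 8 further TAFs and the TATA-binding protein gene SPT15, 4 were higher and 3 lower, between TAF8 (1.83, SE 0.13) and TAF13 (-1.20, SE 0.27). Of 18 genes of other general transcription factors, 6 were higher and 7 lower, between SSL2, a helicase of TFIIH (1.69, SE 0.15), and TFB5, the smallest TFIIH subunit (-2.36, SE 0.43). Of the 12 NuA4 subunits other than TRA1, 4 were higher and 4 lower, between EAF1, the platform of NuA4 (1.75, SE 0.14), and EAF6 (-0.92, SE 0.15).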

How the data were processed

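The submitters' processing notes name genome build R64 and the tools FastQC, Bowtie 0.12.7, Trimmomatic 0.32, DESeq 1.22.1 and HTSeq, without a role for each. Per the labels, libraries were made with the Nextera kit; it does not mark strand, so a gene's reads and those of an antisense partner cannot be told apart. How reads with several matches were counted is not stated. For each open reading frame the authors deposited a normalised signal in every library, the group means, their ratio as a fold change, and a DESeq p-value, which is listed up to 0.00995 and may or may not be adjusted. All nonzero values (100%) were whole multiples of 1 step in their library (tolerance 0.01), which makes the deposited signal a scaled read count.

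Differences were tested with limma 3.58.1 under R 4.3.3, with trended empirical Bayes, on log2(value + 1) for 5670 genes whose mean reached 10, with no covariate and with Benjamini-Hochberg adjustment over all 5670. Fold changes on this scale understate weakly expressed genes. To fit length and GC content out, natural splines (5 and 4 degrees of freedom) were fitted in each library to the genes' deviations from their own means. As alternatives, edgeR 4.0.16 and DESeq2 1.42.0 were run on the recovered reads. With edgeR 4703 of 5670 genes were called, and with limma 4658. Further alternatives were 2 pseudocounts, 2 filters, 2 scalings, a replicate block and leaving out each library.

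Symbols, positions and coding sequences came from RefSeq (R64), which matched 5916 of 6603 open reading frames; 4 lines held no values. Coding lengths include no untranslated region. A BLAST+ 2.17.0 search found no near-identical copy of a member (95% identity or more across 50% or more of the coding sequence), and no member overlapped another RefSeq gene. In the table, 10 members stand beside open reading frames absent from RefSeq, whose overlap was not analysed here. Values in every library are given for the highest and lowest member of each module, for members not called, and for members called against most of their module. Modules follow textbook assignments. The members, lists and tests were chosen with earlier results of these data known.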

Additional observations from a re-analysis of the deposited data

How the results depend on the processing

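Pseudocounts of 0.5 and 5, no filter and a mean of at least 50 (where SUS1 gave no value) changed no member's call or direction. With equal library totals Mediator had 5 mRNAs higher and 14 lower and SAGA 4 higher and 7 lower. Of the 43 other transcription genes 26 were lower, where 27.9% of all genes were higher and 53.7% lower. Median log2 fold changes were then -0.40 for all 40 members, -0.37 for Mediator, -0.87 for head, -0.80 for middle, 0.15 for tail, 0.24 for kinase, -0.44 for SAGA, -0.50 for core, -0.18 for acetyltransferase and -1.10 for deubiquitinase. The members that changed sign were GCN5 (-0.24), MED1 (-0.36), MED2 (-0.077), PGD1 (-0.37), SGF29 (-0.12), SOH1 (-0.48), SPT3 (-0.44), SRB4 (-0.16) and SSN3 (-0.25). By construction, this scaling moves all genes, with the median gene at -0.54. After quantile normalisation 2 SAGA mRNAs were lower, beside 2103 of the 5670 genes tested. The medians were then 0.44 for all 40 members, 0.47 for Mediator, 0.31 for middle, 0.41 for SAGA, 0.35 for core and -0.085 for deubiquitinase. CSE2 (0.51), HFI1 (0.12), MED7 (0.39), MED8 (0.29) and SSN8 (0.59) changed sign. The cause was not tested. With length and GC content fitted out, 20 of the 43 other transcription genes were higher and 10 lower (34.3% and 35.5% of all genes). The medians were then 0.012 for kinase, 0.26 for middle, 0.14 for tail and 0.27 for deubiquitinase. CSE2 (1.24), HFI1 (0.13), MED11 (0.41), MED7 (0.40), MED8 (0.57), PGD1 (-0.084), SIN4 (-0.42), SRB4 (-0.090), SRB7 (0.084), SRB8 (-0.26), SSN3 (-0.13), SSN8 (0.80) and SUS1 (0.83) changed sign. By construction, this fit removes what genes of like length and like GC content share, and the part of each was not tested. With edgeR the medians were 0.068 for all 40 members and 0.10 for Mediator, SOH1 stood at -0.00037, SRB4 and GCN5 lost their calls (adjusted p = 0.0611 and 0.101), and ADA2 and UBP8 were called lower (adjusted p = 0.0281 and 0.0237). With DESeq2 GCN5 alone lost its call (adjusted p = 0.0561). Leaving out each library in turn gave medians from 0.11 to 0.21 for all 40 members and from 0.054 to 0.30 for SAGA. Uncalled members near 0 changed sign: HFI1 ranged from -0.092 to 0.11, SOH1 from -0.073 to 0.22, SPT3 from -0.0040 to 0.30 and SSN8 from -0.19 to 0.16. Same-numbered libraries of the groups correlated at 0.0777, 0.167 and 0.276 in their deviations from the group means, and since the first is low they were not taken as pairs, although all 3 were positive and nothing states how replicates were made. Assembly library 2 correlated best with total RNA library 1 (0.22). With the replicate number as a block 38 of the 40 members were called as before, and SSN3 (0.32) and UBP8 (-0.33) were added (adjusted p = 0.0390 and 0.0362). Depth limits SUS1, SGF11 and SRB6, with as few as 14, 17 and 17 reads in an assembly library.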
